A study of Homo sapiens with 6 samples.

Results

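GRCh38, the build used for these data, holds sequences that belong to the human genome but sit outside the assembled chromosomes. Peaks counted here were all those of the 4 peak lists whose sequence name is not one of chromosomes 1 to 22, X, Y or M. They numbered 4495 of 323713 peaks and lay on 104 sequences, here called contigs, of which 16 had names starting with GL and 88 with KI. The lists came from D283 cells, an established line of Group 3 medulloblastoma, a brain tumor of childhood, cultured as floating tumorspheres in neural precursor medium. The OTX2low cells had received 30 nM siRNA against OTX2, a homeodomain transcription factor of this tumor group, and the OTX2high cells a scramble siRNA. H3K4me3 and H3K27me3 were each mapped by ChIP-seq in 1 library per condition, beside 2 IgG libraries that served as controls. The series asks how both marks lie in these cells when OTX2 is silenced.

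H3K4me3 marks promoters that are active or poised, and H3K27me3 is laid down by Polycomb repressive complexes and can cover long stretches of silent chromatin. Contigs outside the chromosomes are parts of the genome that could not be given a position on a chromosome during assembly, even where the chromosome is known. Many of them hold satellite repeats, duplicated segments or ribosomal RNA genes, whose transcripts form the core of the ribosome, and such repeats are present in more copies in cells than in the reference. How reads that match several places were treated is not given in the sources used here.

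The H3K4me3 libraries held 20914582 tags after filtering in OTX2low and 33137731 in OTX2high. For H3K27me3, the sample labels and the file headers name opposite conditions. The list labelled OTX2low (33885628 tags) has a header that names OTX2high, and the list labelled OTX2high (40271458 tags) has a header that names OTX2low. The IgG totals in the headers go with the header names. One control of 55079542 tags stands in the headers of the OTX2low H3K4me3 list and of the H3K27me3 list labelled OTX2high, and one of 85840108 tags in those of the OTX2high H3K4me3 list and of the H3K27me3 list labelled OTX2low. The 2 H3K27me3 lists are called by their sample label, and no direction between conditions is taken from them. No library had a replicate, so intervals cover counting error only, and PCR reads are not independent molecules. In bulk chromatin, fewer cells with a mark and less of the mark per cell cannot be told apart. H3K4me3 peaks lay within 2000 bp of an end of 8 of 9 genes typical of this tumor group and 2 of 3 neural genes in both conditions. They lay there at 4 of 14 genes of other cell types, namely OLIG2, CDH5, KDR and MYOG, again in both.

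Contig peaks were a small part of every list. They made up 584 of 28824 H3K4me3 peaks in OTX2low (2.03%, exact Clopper-Pearson 95% interval 1.87 to 2.20%) and 488 of 33201 in OTX2high (1.47%, 1.34 to 1.60%). For H3K27me3 they were 1955 of 102810 peaks in the list labelled OTX2low (1.90%, 1.82 to 1.99%) and 1468 of 158878 in the list labelled OTX2high (0.92%, 0.88 to 0.97%). The smaller H3K4me3 list thus held more contig peaks, and so did the smaller H3K27me3 list. Summed length gave the same order for H3K4me3, with 328.3 kb in OTX2low and 289.0 kb in OTX2high. For H3K27me3 it gave the opposite order, with 471.1 kb in the list labelled OTX2low and 1038 kb in the list labelled OTX2high. H3K4me3 peaks lay on 62 contigs in each condition, 55 of them the same. H3K27me3 peaks lay on 88 and 72 contigs in the lists labelled OTX2low and OTX2high. On 35 contigs only H3K27me3 peaks were listed, and on 5 only H3K4me3 peaks.

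Most H3K4me3 contig peaks looked unlike those of the chromosomes. The pileup is the number of extended ChIP fragments at a peak's summit, and the fold enrichment is that pileup over the local IgG background, each with 1 added. Both are the authors' values. In OTX2low the median contig peak had a pileup of 59, a fold enrichment of 2.72 and a length of 320 bp, whereas peaks of assembled chromosomes had 42, 14.99 and 1030 bp. In OTX2high the medians were 80, 2.305 and 353 bp on contigs and 45, 11.1 and 899 bp on chromosomes. At the median, contig peaks were therefore shorter, had more ChIP fragments at the summit and yet stood less far above their control. The upper quartile of pileup was higher on contigs than on chromosomes in OTX2low (104 against 86) and lower in OTX2high (122 against 137).

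The background that each peak was called against can be recovered from its pileup and fold enrichment. Its median for H3K4me3 contig peaks was 22.0 fragments in OTX2low and 31.7 in OTX2high, and on chromosomes it was 1.40 and 2.32, the floor that MACS2 sets for each list. A background of at least 5 times the floor, a limit chosen after seeing the data, is called high here. High background was found at 401 of 584 contig peaks in OTX2low (68.7%, 64.7 to 72.4%) and 343 of 488 in OTX2high (70.3%, 66.0 to 74.3%), against 4.48% and 3.34% of all peaks in those lists. For H3K27me3 the shares were lower. In the list labelled OTX2low 685 of 1955 had a high background (35.0%), against 2.67% of the whole list, and in the list labelled OTX2high 254 of 1468 did (17.3%), against 0.568%.

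**Figure D1:**
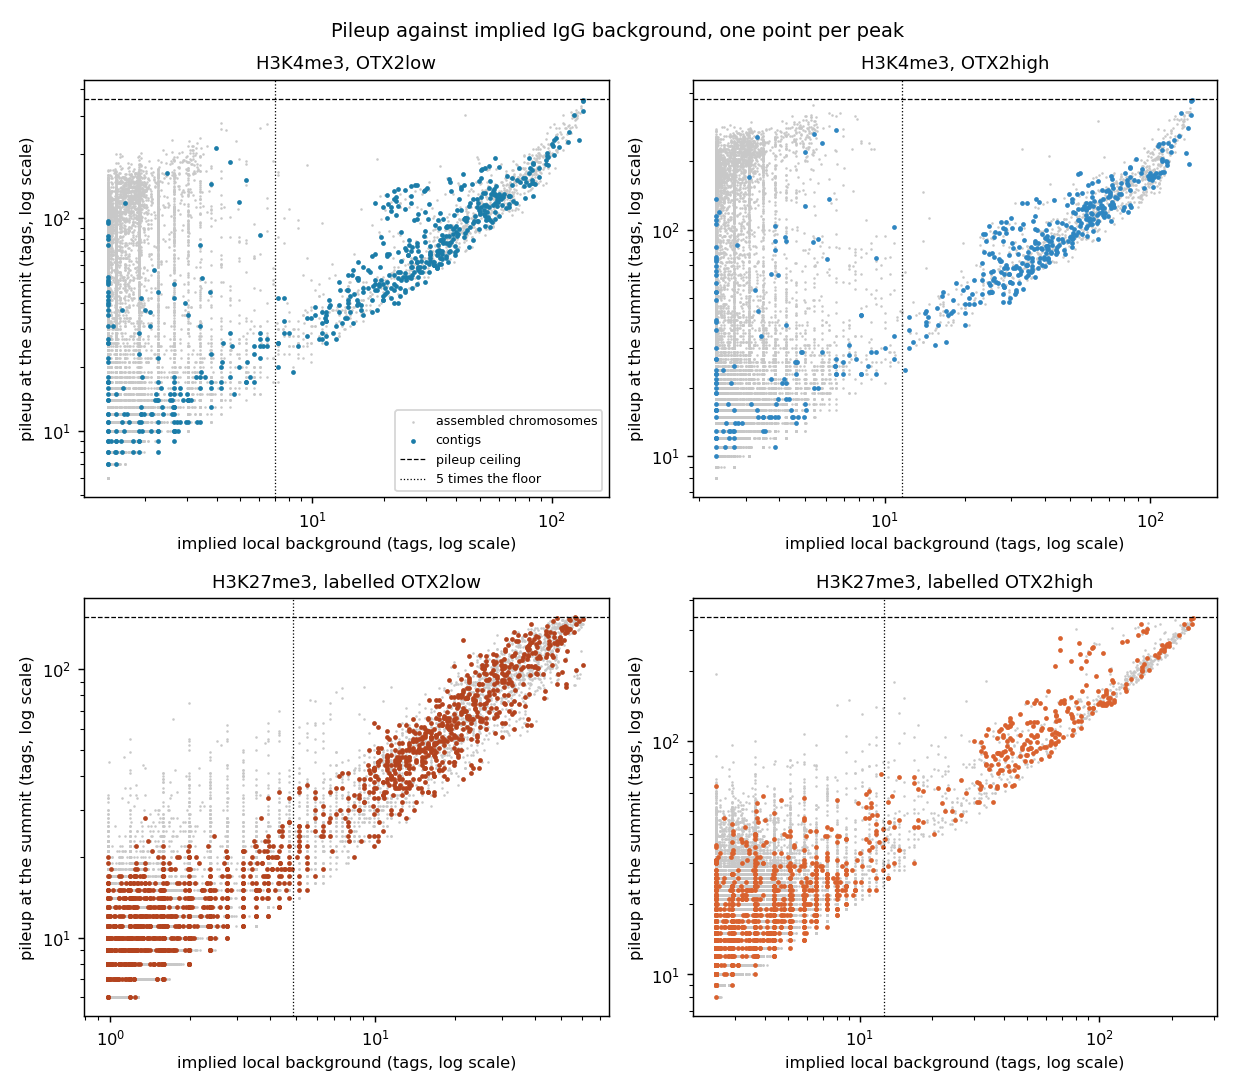
Pileup (vertical, log scale) against implied local IgG background (horizontal, log scale) for every peak of the 4 lists, with contig peaks in colour over those of assembled chromosomes in grey. Dashed lines mark the highest possible pileup (362, 378, 156 and 338) and dotted lines 5 times the background floor. Most H3K4me3 contig peaks follow the rising diagonal on the right, and a smaller set stands at low background on the left.

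The high-background peaks had low fold enrichments, of which the background is the denominator. Their median was 2.24 in OTX2low and 2.05 in OTX2high. The high-background peaks of chromosomes, 891 in OTX2low and 766 in OTX2high, had medians of 2.20 and 1.99. The contig peaks with a lower background, 183 in OTX2low and 145 in OTX2high, had medians of 4.37 and 4.73.

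The tallest contig peaks of all 4 lists stood at the top of this diagonal. MACS2 kept 1 tag per position and strand, per the file headers, so a pileup cannot exceed 2 fragment lengths. That ceiling is 362 in the H3K4me3 list of OTX2low, 378 in that of OTX2high, 156 in the H3K27me3 list labelled OTX2low and 338 in the list labelled OTX2high. At positions 109080 to 110610 of KI270438.1 the H3K4me3 pileup was 356 in OTX2low and 372 in OTX2high. The H3K27me3 pileup there was 156 in the list labelled OTX2low and 336 in the list labelled OTX2high. Both marks and both conditions thus came within 6 fragments of the ceiling at this place.

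The control was near its own ceiling there too. The implied background was 135.2 in OTX2low and 144.0 in OTX2high for H3K4me3, where scaled IgG ceilings are 137.5 and 145.9. When ChIP and IgG are both at their ceilings the fold enrichment is fixed by the library sizes alone, at 2.62 in OTX2low and 2.58 in OTX2high. The observed values were 2.62 and 2.57. For H3K27me3 in the list labelled OTX2low the fixed value is 2.51 and 2.73 was observed, at an implied background of 56.5 under a scaled IgG ceiling of 61.6. For the label OTX2high the fixed value is 1.37, and 1.37 was observed. At positions 79932 to 80507 of GL000216.2 the H3K4me3 pileups were 304 in OTX2low and 327 in OTX2high, with fold enrichments of 2.44 and 2.49. KI270438.1 held 3 of the 5 tallest H3K4me3 contig peaks in each condition. It held all 5 of the tallest H3K27me3 contig peaks in the list labelled OTX2low and 3 of 5 in the list labelled OTX2high. The others lay on GL000216.2, KI270709.1, KI270467.1 and GL000220.1.

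A second, smaller set of H3K4me3 contig peaks had the low background and high fold enrichment seen at most chromosome peaks. With a fold enrichment of 10 or more, a limit also chosen after seeing the data, there were 42 such peaks on 24 contigs in OTX2low and 40 on 25 contigs in OTX2high. On chromosomes 56.4% and 51.4% of peaks were this strong, and on contigs 7.19% and 8.20%. The strongest in both conditions lay on KI270733.1. At positions 23315 to 25644 it had a fold enrichment of 47.2 and a pileup of 163 in OTX2low, and at 23236 to 25754 it had 60.0 and 256 in OTX2high. No H3K27me3 peak overlapped it in either list.

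Next in OTX2low came a peak at 83489 to 87231 of GL000195.1 with a fold enrichment of 44.8 and a pileup of 118, and in OTX2high its partner at 84348 to 87191 had 42.2 and 171. At 98097 to 100543 of GL000219.1 the OTX2low peak had a fold enrichment of 42.7 and a pileup of 212, and the overlapping OTX2high peak had 36.4 and 274. The first 683 bp of KI270718.1 carried a peak with a fold enrichment of 40.8 in OTX2low, cut short by the contig's start. GL000195.1 held another peak at 29828 to 32569 with a fold enrichment of 40.0 in OTX2low, and at 29851 to 33868 with 41.3 in OTX2high. In OTX2high the 5 strongest also included 85852 to 90857 and 138469 to 140931 of GL000205.2, with fold enrichments of 41.2 and 36.7. The gene table used here gives no contig names, so no gene is assigned to these peaks.

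H3K4me3 contig peaks that were strong in both conditions had similar heights. Pileups were scaled for depth, to fragments per 1000000 tags of the library, and peaks that overlapped best in both directions were paired. Of 368 pairs, 35 on 23 contigs were strong in both lists. Peaks strong in only 1 list are left out of these pairs, a choice that favours similar heights. The median log2 ratio of OTX2low over OTX2high in the 35 pairs was 0.05, with quartiles of -0.16 and 0.19. The 21063 pairs on assembled chromosomes, of any strength, had a median of -0.12, and the strong contig pairs stood 0.17 above it. The 15156 chromosome pairs that were strong in both lists had a median of -0.13. The exact 95% counting interval of the ratio held 1 for 29 of the 35 pairs, lay above 1 for 2 and below 1 for 4. In fold enrichment, the median log2 ratio was -0.16 for the strong contig pairs, -0.32 for all chromosome pairs and -0.33 for the strong chromosome pairs.

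The 2 pairs above 1 were those of GL000219.1 and KI270718.1. The GL000219.1 peak had a depth-scaled pileup of 10.1 in OTX2low and 8.27 in OTX2high, a ratio of 1.23 (1.02 to 1.47). The KI270718.1 peak had 4.64 in OTX2low and 3.47 in OTX2high, a ratio of 1.34 (1.01 to 1.77). Among the 4 below 1, the peak at 3159 to 6592 of KI270744.1 had 2.34 in OTX2low and 3.83 in OTX2high, a ratio of 0.61 (0.43 to 0.86). In OTX2high that peak ran over 6277 bp and was the longest H3K4me3 contig peak of the list. The lowest ratio, 0.61 (0.43 to 0.84), belonged to 20516 to 22214 of KI270713.1, with a pileup of 52 in OTX2low and 136 in OTX2high. There the OTX2low list had a second and taller peak, of pileup 83 at 22299 to 23000, which overlapped the same OTX2high peak. With that peak the ratio was 0.97 (0.73 to 1.28) and the intervals of 3 pairs lay below 1, a comparison made after seeing the data. The remaining 2 were at 113659 to 114289 of KI270733.1, with a ratio of 0.68 (0.46 to 0.997), and at 31374 to 32001 of KI270712.1, with a ratio of 0.62 (0.39 to 0.97). None of these intervals was corrected for the number of pairs.

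The high-background pairs behaved differently. All 276 of them had a higher depth-scaled pileup in OTX2low than in OTX2high. The log2 ratio had a median of 0.61 and quartiles of 0.51 and 0.74. As deposited, their median pileups were nearly equal, 103.5 in OTX2low and 102 in OTX2high. The pileup ceiling itself, scaled in the same way, is 17.3 in OTX2low and 11.4 in OTX2high, a log2 ratio of 0.60. Among the 104 pairs whose pileup was under 25% of the ceiling in both lists, the median was 0.60. The implied IgG background of the same 276 pairs moved the same way, with a median log2 ratio of 0.42 after the same scaling. On chromosomes 619 of 620 high-background pairs were also higher in OTX2low, with a median log2 ratio of 0.59. The difference was thus found at high background on contigs and chromosomes alike, and the part of library depth and of the control in it was not tested.

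**Figure D2:**
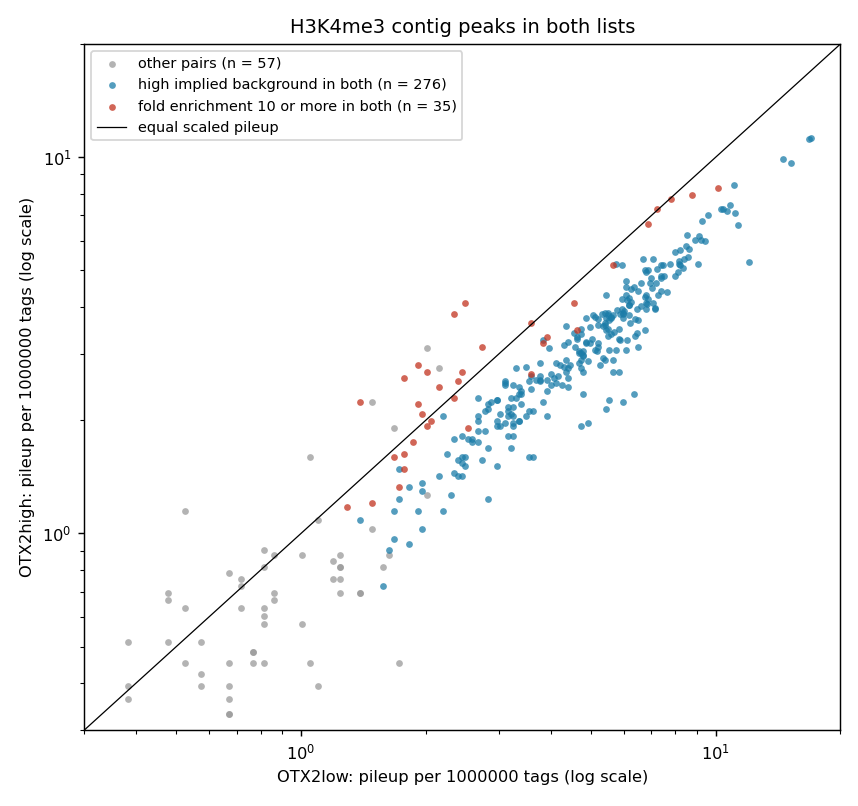
H3K4me3 contig peaks found in both lists, by pileup per 1000000 tags in OTX2low (horizontal) and OTX2high (vertical), both on log scales, 1 point per pair. The 276 pairs with a high implied background lie below the line of equality, on the OTX2low side, and the 35 strong pairs lie around it.

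GL000220.1 and KI270733.1 carried similar landscapes of both marks. Together they held 92 H3K4me3 contig peaks in OTX2low and 100 in OTX2high. Sliding the covered bases of one along the other gave the best match in the OTX2low H3K4me3 list at a shift of 16836 bp, where 39778 bp coincided, 82.5% of the smaller set. In OTX2high the best shift was 16837 bp with 26723 bp, or 73.1%. The H3K27me3 list labelled OTX2low matched best at 16889 bp with 29087 bp, and the list labelled OTX2high at 16848 bp with 66543 bp. All 4 lists therefore gave nearly one shift, although the best shift is the highest of many tried. The next best shifts, at other distances, gave 51.7 to 68.0% of the smaller set.

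The shift lies close to a distance in the RefSeq gene table of GRCh38.p14. That table lists RNA45SN5, a precursor of the 18S, 5.8S and 28S ribosomal RNAs, at 105424 to 118780 of a sequence of unknown chromosome. It lists RNA45SN4, another copy, at 122273 to 135645 under chromosome 22, a coordinate that starts 16849 bp later. The table does not name the scaffold of either gene, so the genes are not assigned to the contigs here, but H3K4me3 backgrounds changed near their coordinates on both contigs. To the left of a point 5000 bp before these starts, the H3K4me3 peaks had low backgrounds, at most 3.76 in OTX2low and 5.60 in OTX2high. To the right, backgrounds were at least 14.1 in OTX2low and 23.2 in OTX2high at every H3K4me3 peak.

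H3K4me3 in the stretch at the 45S coordinates was broad and moderately enriched. It covered 67.6% of the stretch on GL000220.1 and 76.6% on KI270733.1 in OTX2low, against 49.1% and 51.6% in OTX2high. All these peaks had a high background, and high-background pairs were higher in OTX2low after depth scaling on contigs and chromosomes alike. The values of this stretch were not separated from that difference. Median fold enrichments were 4.87 and 3.96 in OTX2low and 3.27 and 2.88 in OTX2high. The RNA45SN1, RNA45SN2 and RNA45SN3 copies that the table places on chromosome 21 gave similar values, with medians of 4.34 to 4.74 in OTX2low and 2.94 to 3.39 in OTX2high. H3K27me3 peaks lay there too, with median fold enrichments of 3.46 and 2.87 in the list labelled OTX2low and 2.32 and 2.06 in the list labelled OTX2high. Ribosomal RNA genes are near copies of each other, so reads of one copy cannot be told from reads of another. In OTX2low the H3K4me3 pattern of this stretch repeated on GL000220.1 at a distance of 43969 bp, where 94.6% of its covered bases recurred, and in OTX2high at 43959 bp with 94.5%. The next best distances, 21311 bp in OTX2low and 26957 bp in OTX2high, gave 90.0% and 81.5%. RNA18SN5 and RNA18SP3, an 18S gene and pseudogene in the table, start 43972 bp apart. On KI270733.1 the best distances were 45061 bp in OTX2low and 45076 bp in OTX2high, where RNA18SN4 and RNA18SP4 start 45081 bp apart. They gave 88.7% in OTX2low and 83.8% in OTX2high, with 83.7% and 73.6% at the next best distances, so the best match stood only a little above others in OTX2low. For H3K27me3 the best match fell at 23353 to 27178 bp in the 4 comparisons, with 92.7 to 100% of the covered bases. The next best distances gave 89.8 to 98.7%, nearly as much. The best distance therefore cannot show whether H3K27me3 repeats at the distances found for H3K4me3.

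Left of the array, 2 couples of sharp H3K4me3 peaks stood in gaps of H3K27me3 on both contigs, and another couple did so on KI270733.1 only. The strong peak at 6456 to 8688 of GL000220.1 in OTX2low had a fold enrichment of 33.7, and its counterpart on KI270733.1 was the 47.2-fold peak described above. In OTX2high these had 32.2 and 60.0. The intervals of this couple overlapped at the best shifts of 16836 and 16837 bp, but the summits did not line up. They lay at a distance of 17840 bp in OTX2low and 17885 bp in OTX2high. A second couple lay at 52112 to 53325 of GL000220.1 and 69299 to 70196 of KI270733.1, with fold enrichments of 21.7 and 15.8 in OTX2low and 18.5 and 15.1 in OTX2high. H3K27me3 peaks covered 10.2 to 13.6% of this left part in the list labelled OTX2low and 51.9 to 57.3% in the list labelled OTX2high. In the latter list the first couple stood in H3K27me3 gaps of 4.25 and 3.75 kb, and the second in gaps of 8.46 and 7.56 kb. A gap here runs between the neighbouring H3K27me3 peaks and includes the width of the H3K4me3 peak. Another couple lay at 96978 to 97486 of GL000220.1 and 113569 to 114609 of KI270733.1 in OTX2high, with fold enrichments of 13.9 and 18.1. Its GL000220.1 peak did overlap an H3K27me3 peak of the same list as these gaps, of 9.09-fold enrichment. Its KI270733.1 peak overlapped none and stood in a gap of 4.905 kb, but at the edge of that gap. The nearest H3K27me3 peaks of that list lay 52 bp to its left and 3812 bp to its right. The left part held 67 H3K27me3 peaks on GL000220.1 and 79 on KI270733.1 in the list labelled OTX2low, with median fold enrichments of 4.58 and 4.998. For the label OTX2high it held 76 and 83 longer peaks, with medians of 4.30 and 4.40.

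**Figure D3:**
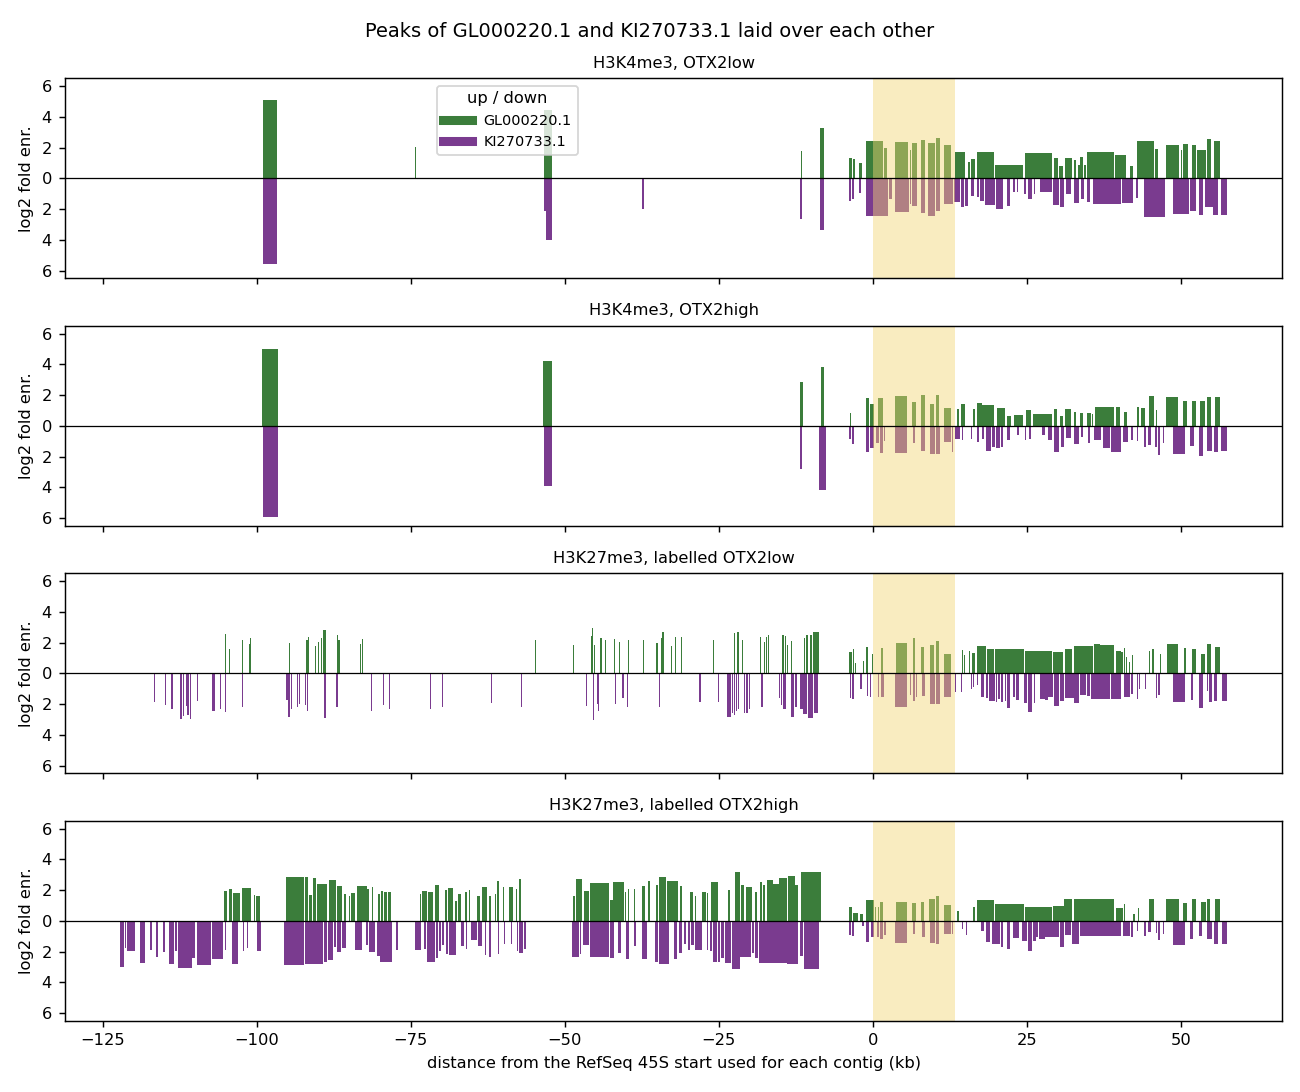
Peaks of GL000220.1 (green, upward) and KI270733.1 (purple, downward) in the 4 lists, by distance in kb from the RefSeq 45S start used for each contig, with log2 of the fold enrichment as height. The shaded span is the 45S length, and the mirrored blocks show the same arrangement on both contigs, with tall H3K4me3 peaks among H3K27me3 peaks on the left.

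H3K27me3 formed long domains on a few contigs. The list labelled OTX2low had no contig peak of 5000 bp or more, its longest having 4724 bp, and the list labelled OTX2high had 21 (1.43%). Both lists differed in this way on chromosomes too, where 0.00496% of peaks were this long in the list labelled OTX2low, against 0.956% for the label OTX2high. Fragment lengths were estimated at 78 bp for the list labelled OTX2low and 169 bp for the list labelled OTX2high, and peak lengths depend on them. Of the 21, 17 had no high background, and they lay on 6 contigs. The longest ran from 38859 to 71526 of KI270734.1, over 32668 bp, with a fold enrichment of 9.28. In the list labelled OTX2low the same span held 57 peaks that covered 62.6% of it.

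KI270731.1 had the greatest summed H3K27me3 length of any contig in both lists. Its long peaks in the list labelled OTX2high ran from 24992 to 46223, from 46410 to 61772 and from 71578 to 85806, with fold enrichments of 10.9, 8.47 and 10.0. The list labelled OTX2low covered 74.3%, 78.9% and 79.9% of them in 28, 18 and 21 peaks. The strongest H3K27me3 contig peak of that list, at 35377 to 37475 with a fold enrichment of 12.3, lay in the first of these. The 17 domains are themselves peaks of the list labelled OTX2high. The list labelled OTX2low had peaks in all 17 and covered from 3.29 to 79.9% of each, with a median of 64.7%. The lowest coverage, 3.29%, was at 63529 to 69872 of KI270721.1. H3K4me3 peaks overlapped 4 of the 17 domains in OTX2low and 2 in OTX2high. The same count was not made for long H3K27me3 peaks of chromosomes, so these numbers cannot be called particular to contigs. KI270731.1 itself had a single H3K4me3 peak in each condition, of 309 bp in OTX2low and 310 bp in OTX2high.

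Counts and covered length ordered the H3K27me3 lists differently on most of these contigs. KI270731.1 had 204 peaks over 77.7 kb in the list labelled OTX2low and 52 peaks over 128.7 kb in the list labelled OTX2high. KI270734.1 had 190 over 63.9 kb and 50 over 101.7 kb, and KI270712.1 had 191 over 49.2 kb and 108 over 119.8 kb, in the same order of lists. Many short peaks of the list labelled OTX2low thus lay where the other list had few long ones. On these 3 contigs 94.7 to 97.6% of them were overlapped by the other list, against 84.0% of the whole list labelled OTX2low. KI270727.1 departed from this, with 40 peaks over 4.50 kb in the list labelled OTX2low and 196 over 63.7 kb in the list labelled OTX2high. There 67.5% of the peaks in the list labelled OTX2low were overlapped by the other list. Of those in the list labelled OTX2high 12.8% were, against 25.9% of that whole list. GL000225.1, a high-background contig, had 122 peaks over 14.7 kb in the list labelled OTX2low and 22 over 6.27 kb in the list labelled OTX2high.

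**Figure D4:**
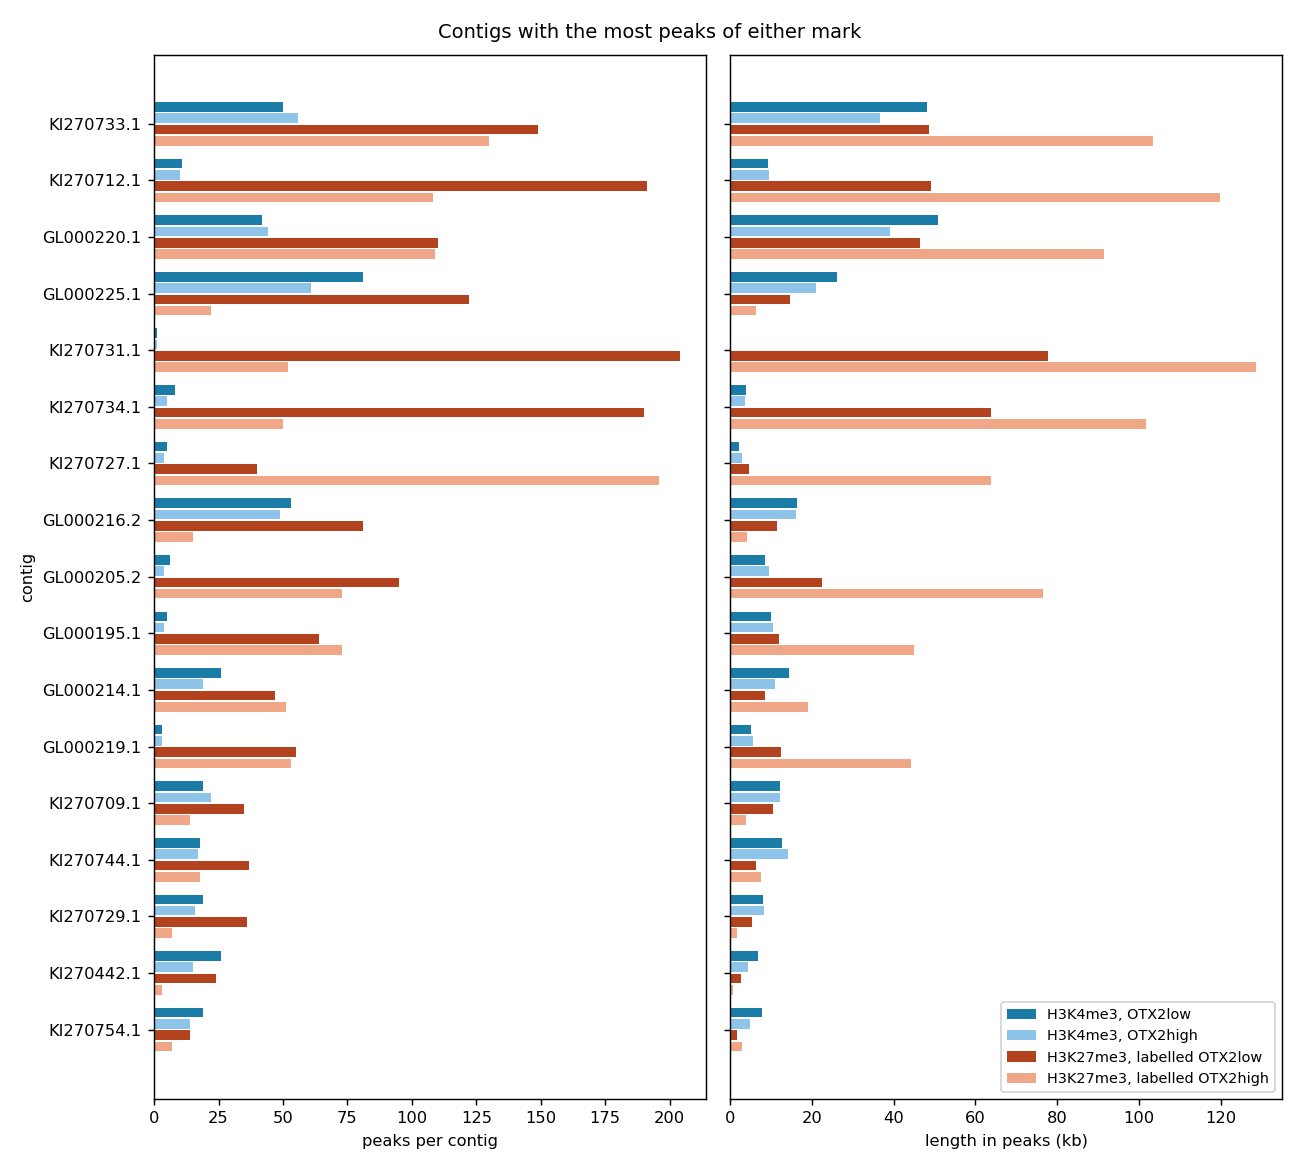
Number of peaks (left) and summed peak length in kb (right) in each of the 4 lists for the 17 contigs that are among the 10 with the most H3K4me3 or the 10 with the most H3K27me3 peaks. H3K27me3 length is greater in the list labelled OTX2high on the domain contigs (KI270712.1, KI270731.1, KI270734.1), although the list labelled OTX2low has more peaks there.

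The contigs richest in H3K4me3 were for the most part not those richest in H3K27me3, and 3 of 10 were among both. GL000225.1 had the most H3K4me3 peaks, 81 in OTX2low and 61 in OTX2high, with median fold enrichments of 2.08 and 1.90. It was followed by KI270733.1, with 50 in OTX2low and 56 in OTX2high, GL000216.2 with 53 and 49, and GL000220.1 with 42 and 44. GL000214.1, KI270709.1, KI270442.1, KI270744.1, KI270729.1 and KI270754.1 completed the 10, with 18 to 26 peaks each in OTX2low and 14 to 22 in OTX2high. The 10 contigs held 60.4% of H3K4me3 contig peaks in OTX2low and 64.1% in OTX2high. By number of peaks, 36 contigs had more H3K4me3 in OTX2low and 17 more in OTX2high, with 16 equal. By covered length 31 had more in OTX2low and 38 more in OTX2high.

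KI270712.1 combined strong H3K4me3 with strong H3K27me3. Between 967 and 4864 lay the H3K27me3 contig peak with the highest fold enrichment of the list labelled OTX2high, at 18.5 with a pileup of 64. The list labelled OTX2low had 7 peaks in the same span, the strongest with a fold enrichment of 10.6 and a pileup of 20. H3K4me3 overlapped it at 2300 to 4851 in OTX2low, with a fold enrichment of 17.5, and at 2176 to 4923 in OTX2high, with 21.1. The strongest peak of each list there stood at the background floor. A neighbouring H3K4me3 peak at 5141 to 7075 had 18.3 in OTX2low and 20.2 in OTX2high, over H3K27me3 with fold enrichments of up to 5.95 and 10.2 in the lists labelled OTX2low and OTX2high. Farther along, H3K4me3 at 30130 to 31227 had a fold enrichment of 31.6 in OTX2low, and at 28954 to 31231 it had 35.8 in OTX2high. H3K27me3 peaks overlapped this H3K4me3 as well, with fold enrichments of up to 6.38 and 9.09 in the lists labelled OTX2low and OTX2high. Right beside it a longer H3K27me3 domain ran from 31390 to 44100 with a fold enrichment of 12.9 in the list labelled OTX2high.

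**Figure D5:**
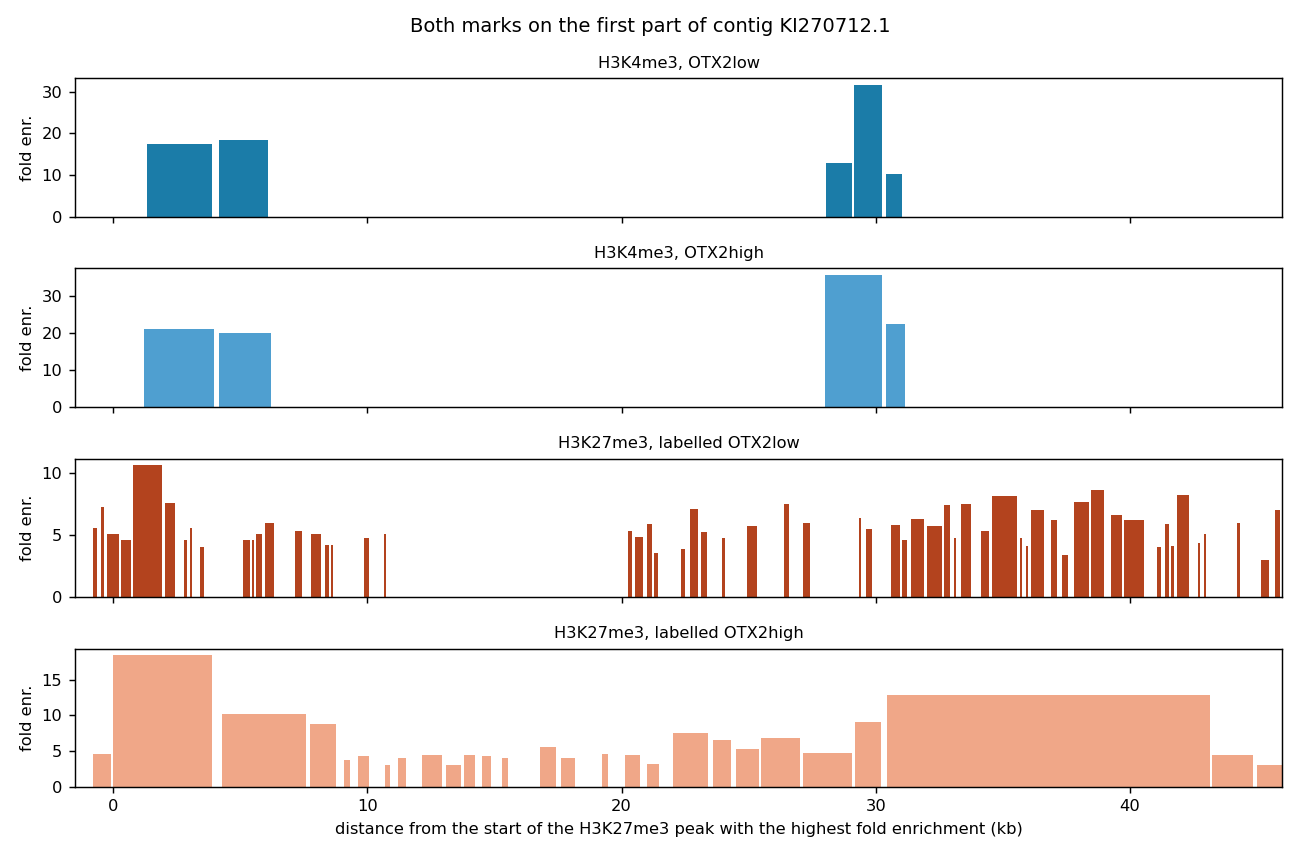
Fold enrichment of the peaks of the 4 lists along the first part of KI270712.1, by distance in kb from the start of its strongest H3K27me3 peak. The 2 H3K4me3 peaks on the left lie over H3K27me3 peaks. Those near 30 kb also overlap H3K27me3 peaks and lie at the left edge of a 12.7 kb H3K27me3 domain.

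Such coincidence was uncommon among strong H3K4me3 contig peaks and common among those with a high background. Of all H3K4me3 contig peaks, 388 of 584 in OTX2low (66.4%) overlapped an H3K27me3 peak of either list by at least 1 bp, against 17.9% of the whole list. In OTX2high 360 of 488 did (73.8%), against 14.6%. In OTX2low this was so for 339 of 401 high-background peaks and for 49 of 183 others. In OTX2high it was so for 316 of 343 and for 44 of 145. Among strong H3K4me3 peaks, 8 of 42 in OTX2low (19.05%, 8.60 to 34.1%) and 9 of 40 in OTX2high (22.5%, 10.8 to 38.5%) overlapped H3K27me3. On chromosomes 12.7% of strong peaks did in each condition, a share that both intervals hold. Apart from 5 on KI270712.1, those of OTX2low lay on KI270717.1, KI270742.1 and KI270714.1. Seen from the other mark, 542 of 1955 H3K27me3 contig peaks in the list labelled OTX2low (27.7%) overlapped H3K4me3, against 6.00% of that list. Of the list labelled OTX2high, 264 of 1468 did (18.0%), against 3.81%.

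The 10 tallest H3K4me3 contig peaks with H3K27me3 were all of the high-background kind. In OTX2low they lay on KI270438.1, GL000216.2, KI270709.1, KI270467.1 and KI270729.1, with H3K4me3 pileups of 223 to 356 and fold enrichments of 1.77 to 2.62. In OTX2high they lay on the same 5 contigs, with pileups of 238 to 372 and fold enrichments of 2.00 to 2.58. The implied background at these peaks was 100.2 to 135.2 in OTX2low and 108.1 to 144.0 in OTX2high, where the scaled IgG ceilings are 137.5 and 145.9.

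Overlap between conditions differed with background, but not one way in all lists. For H3K4me3, 382 of 584 contig peaks of OTX2low (65.4%) were overlapped by the OTX2high list, against 87.4% of all OTX2low peaks, and 401 of 488 of OTX2high (82.2%) by the OTX2low list, against 67.1%. Among high-background contig peaks the shares were 71.8% in OTX2low and 89.8% in OTX2high, and among the others 51.4% and 64.1%. For H3K27me3, 1372 of 1955 contig peaks in the list labelled OTX2low (70.2%) were overlapped by the other list, against 84.0% of the whole list. Of the list labelled OTX2high 664 of 1468 were (45.2%), against 25.9%. Split by background, 297 of 685 high-background peaks were overlapped in the list labelled OTX2low (43.4%) and 1075 of 1270 others, the reverse of the order for H3K4me3. For the label OTX2high, 229 of 254 high-background peaks were overlapped (90.2%) and 435 of 1214 others (35.8%). Longer lists and longer peaks are overlapped more easily, so these shares are no measure of likeness between conditions.

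Some strong H3K4me3 contig peaks stood near H3K27me3 peaks without overlapping them. Of the 35 strong peaks found in both conditions, 28 overlapped no H3K27me3 peak in either list. Against the list labelled OTX2high alone 29 overlapped none, and 22 of these had H3K27me3 peaks on both sides on the same contig. Their gaps ran from 3.75 to 344.5 kb with a median of 33.8 kb. For 14 of the 22 the nearer neighbour lay within 5000 bp. The same counts were not made for chromosome peaks, so this nearness cannot be called particular to contigs. On GL000205.2 the 33.1-fold OTX2low peak at 86075 to 89068 had H3K27me3 peaks 1342 and 1941 bp from the edges of the span it shares with the OTX2high peak.

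None of the authors' differential calls lay on a contig. The authors' deposited tables list 21714 differential regions for H3K4me3 and 5401 for H3K27me3, with 1964 and 61 clusters of them, and 0 of these rows name a sequence outside the chromosomes. Whether the contigs were scanned is not given in the sources used here, so a count of 0 does not show that contig signal was equal between conditions.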

How the data were processed

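ChIP-seq of H3K4me3 and H3K27me3 was analysed in 4 libraries. The submitters' processing notes name Bowtie2 2.3.3.1, MACS2 2.1.1.20160309 and GRCh38. Each of 2 IgG controls served 2 lists, and the q-value limit was 0.05, per the file headers. The authors' lists hold a pileup signal, a fold enrichment ratio, −log10 p and −log10 q values and a length per peak. The authors' deposited differential tables hold log2 ratios, which were checked for contig rows and otherwise not used. Contig peaks were chosen by sequence name with Python 3.11.15, pandas 2.3.3 and SciPy 1.17.1, and implied background was computed as (pileup + 1) / fold enrichment − 1. Overlaps needed 1 bp. Overlap and background steps were tested on simulated data. With 1 library per group no test was run. Named peaks were drawn from the 5 highest by fold enrichment and by pileup in each list, the 10 contigs richest in each mark, and the 10 tallest peaks with both marks. Not all of these peaks are named in the text, and of the H3K27me3 peaks highest by fold enrichment only some are. Peaks of the H3K27me3 domains, of strong pairs and of the ribosomal contigs were named after seeing their values. Members and lists were chosen with earlier results of these data known. IgG libraries were assigned to no group, because their labels contradict each other.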

Additional observations from a re-analysis of the deposited data

How the results depend on the processing

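Counts of contig peaks changed by less than 1.5 times with q at or below 0.01 or 0.001. Merging intervals within 1000 bp left 309 H3K4me3 places in OTX2low and 258 in OTX2high, and 595 and 531 H3K27me3 places in the lists labelled OTX2low and OTX2high. Merging overlapping intervals changed no count, and no name was an alternate, viral or decoy sequence. A reciprocal overlap of 50% lowered the shares found in the other condition to 53.4% in OTX2low and 63.9% in OTX2high for H3K4me3, and to 9.72% and 12.9% for H3K27me3. Counting only peaks with q at or below 0.001 gave 69.5% for H3K4me3 in OTX2low and 48.8% for H3K27me3 in the list labelled OTX2high. Shares with the other mark fell with reciprocal overlap to 36.8%, 43.0%, 9.92% and 13.0%, and with overlap in both lists of the other mark to 36.8%, 43.4%, 20.4% and 14.3%, in the order H3K4me3 OTX2low, OTX2high, H3K27me3 labelled OTX2low, OTX2high. High-background shares were 72.8%, 73.6%, 41.1% and 22.7% at 3 times the floor and 61.6%, 63.1%, 31.0% and 15.4% at 10 times, in the same order. The ratio of median H3K4me3 pileups, OTX2low over OTX2high, was 0.74 as deposited and reversed to 1.17 when scaled for depth. For H3K27me3 the ratio of the list labelled OTX2low over the list labelled OTX2high was 0.74 as deposited and 0.88 when scaled. Scaling for depth does not account for the fragment lengths of 78 and 169 bp in these lists. The median log2 ratio of high-background H3K4me3 pairs was 0.61 when scaled for depth and reversed to -0.051 as deposited. For these ratios the scaling is the only change made. Strong H3K4me3 pairs had 0.05, or 0.17 relative to the shift of all chromosome pairs. They had 0.05 both without GL000220.1 and KI270733.1 and with the tallest overlapping peak of each list. Of 24 alternative medians of pileup, fold enrichment and length, 13 stayed within the 95% interval of the median. The thresholds on background and the pair alternatives were chosen after seeing the data. Alternatives for differential regions were not run, since none lay on a contig. No paired analysis was possible because each group has 1 library.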
